A study of Homo sapiens with 6 samples.

Results

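The BH3-only genes encode the sensors of intrinsic apoptosis. The group taken here holds 8 genes, chosen by symbol with earlier results of these data known: BCL2L11 (BIM), BBC3 (PUMA), PMAIP1 (NOXA), BAD, BID, BIK, BMF and HRK. Through the Ensembl identifiers 7 of the 8 were matched to rows, among 19498 genes in all, and all 7 reached the level needed for testing, as did 16658 genes overall. BIK was not analysed here. The values come from polyadenylated RNA of K562 cells, a human leukaemia line (chronic myeloid) driven by the BCR::ABL1 kinase. There were 3 biological replicates labelled ACK KO and 3 labelled WT. All 6 libraries came from the same line grown in RPMI with fetal bovine serum, with no treatment named, and were collected alongside CUT&RUN material. ACK is the non-receptor tyrosine kinase encoded by TNK2, and the title of the series sets it beside the transcription factor STAT5. The labels do not say how the knockout was made, or whether it is 1 clone or a pool of edited cells, so an effect of genotype and a difference between lines cannot be told apart.

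A BH3-only protein carries a short helix, the BH3 domain, that fits the groove of BCL2 and its anti-apoptotic relatives. It neutralises them or, for BIM, BID and PUMA, also activates the pore formers BAX and BAK directly. Each gene answers to its own input. BIM is induced by FOXO factors and held down by ERK signalling, PUMA and NOXA are induced by DNA damage and other stress, BAD is silenced by phosphorylation, and BID is cut by caspase-8. BMF and BIM are tethered to dynein light chains, and HRK is known from neurons deprived of growth factors. In BCR::ABL1 leukaemia cells the kinase keeps BIM low and BAD phosphorylated, and BIM takes part in the death that follows its inhibition.

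What the 8 genes share in sequence is the BH3 core. The coding stretches below, from the GENCODE 29 transcripts (GRCh38), are shown because this core defines the group. Each is 36 bases long, 5′ to 3′, with the codons of the invariant leucine and aspartate in capitals.
BCL2L11: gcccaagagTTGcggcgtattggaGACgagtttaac
BBC3: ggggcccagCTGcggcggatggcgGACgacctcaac
PMAIP1: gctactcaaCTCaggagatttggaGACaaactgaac
BAD: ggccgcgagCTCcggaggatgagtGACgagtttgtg
BID: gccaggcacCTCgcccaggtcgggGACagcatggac
BIK: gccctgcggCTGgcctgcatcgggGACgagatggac
BMF: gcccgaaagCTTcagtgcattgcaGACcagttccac
HRK: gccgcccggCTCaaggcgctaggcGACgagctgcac
The positions and strands are BCL2L11 at chr2:111150094-111150129 (plus), BBC3 at chr19:47226582-47226617 (minus), PMAIP1 at chr18:59902664-59902699 (plus), BAD at chr11:64271625-64271660 (minus), BID at chr22:17739418-17739453 (minus), BIK at chr22:43127707-43127742 (plus), BMF at chr15:40104198-40104233 (minus), HRK at chr12:116881173-116881208 (minus). Each of these stretches lies within 1 exon. The pattern searched was a leucine, any residue at each of the next positions up to a large hydrophobic one, then a small residue and an aspartate. It was found once in each of the 8 proteins and in 12.9% of 19515 protein-coding genes, so the pattern alone does not single out the group. In the 1 transcript used per gene, the proteins that carry it ranged from 54 residues in PMAIP1 to 241 in BID, and other transcripts were not measured.

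The 6 libraries summed to 43.5 M to 49.5 M normalised counts in the ACK KO-labelled group, against 46.7 M to 53.3 M in WT. A normalised count is the authors' deposited value, taken here as an estimated read count divided by a factor per library. The read depth is unknown, and errors here are the spread between libraries. TNK2 had 741, 506 and 598 normalised counts in the ACK KO-labelled libraries and 830, 613 and 642 in WT (log2 difference -0.18, SE 0.21). The mRNA level of TNK2 therefore does not check the genotype labels, and the group is called KO-labelled below. All 10 erythroleukaemia identity markers, GATA1 and KLF1 among them, were present in both groups. Of these 1 passed an adjusted p of 0.05 (limma), which is near the 10.3% of all tested genes that did. HBE1, the embryonic epsilon globin gene, rose 9.19-fold to 12385 ± 4308 in KO-labelled libraries, against 1315 ± 256 in WT (SD, n = 3 each; adjusted p 7.84e-04, limma). GATA1, the erythroid master factor, had 6980.5, 7030 and 6863 normalised counts in KO-labelled and 9877, 8842 and 8921 in WT libraries, which did not overlap (log2 difference -0.40, adjusted p 0.0637, and 0.00256 with the block, limma). The summed mitochondrially encoded RNA was also lower, at 2360000 to 2810000 in KO-labelled and 2840000 to 3000000 in WT libraries, although 0 of its 7 genes passed (limma), 0 at an unadjusted p of 0.05, and with the block MT-ND1 alone did (adjusted p 0.00213). Of the marker lists for other cell types, the sum over fibroblast genes moved with the label. It was 88.2 to 217 in KO-labelled libraries and 14.2 to 35.3 in WT. COL1A1 supplied most of it in KO-labelled libraries, but not in WT replicates 1 and 2. COL1A2 and LUM were not analysed here. The sums of lymphoid genes (1000 to 1780 and 509 to 1810), epithelial genes (4610 to 5150 and 4360 to 5170, nearly all EPCAM) and monocyte genes (442 to 609 and 419 to 537) overlapped between KO-labelled and WT libraries. The part of these cells, genes or mitochondrial RNA in the results below was not tested. In a bulk sample, fewer cells expressing a gene and less RNA per cell cannot be told apart.

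PMAIP1 was the only BH3-only gene that rose with the KO label, and none fell, in the test without a replicate block. That is 1 of 7 genes tested, beside 10.3% of all tested genes that passed an adjusted p of 0.05 in either direction (limma, Benjamini-Hochberg). BCL2L11 and BAD had the next largest differences relative to their error, upwards and downwards, and neither passed. BID, BBC3, BMF and HRK varied more with the replicate number than with the genotype label. The replicate numbers were also taken as pairs, although the matching of numbers 2 and 3 is less sure, as described with the processing. With the number as a block 1 gene rose (PMAIP1) and 2 fell (BAD and BID), that is 3 of 7 beside 39.7% of all tested genes. KO-labelled and WT libraries did not overlap for PMAIP1 and BAD, which is 2 of 7 beside 30.0% of all tested genes. None of these shares is far from its background. The median log2 difference of the 7 genes was 0.38, and that of all tested genes was -0.02.

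**Figure D1:**
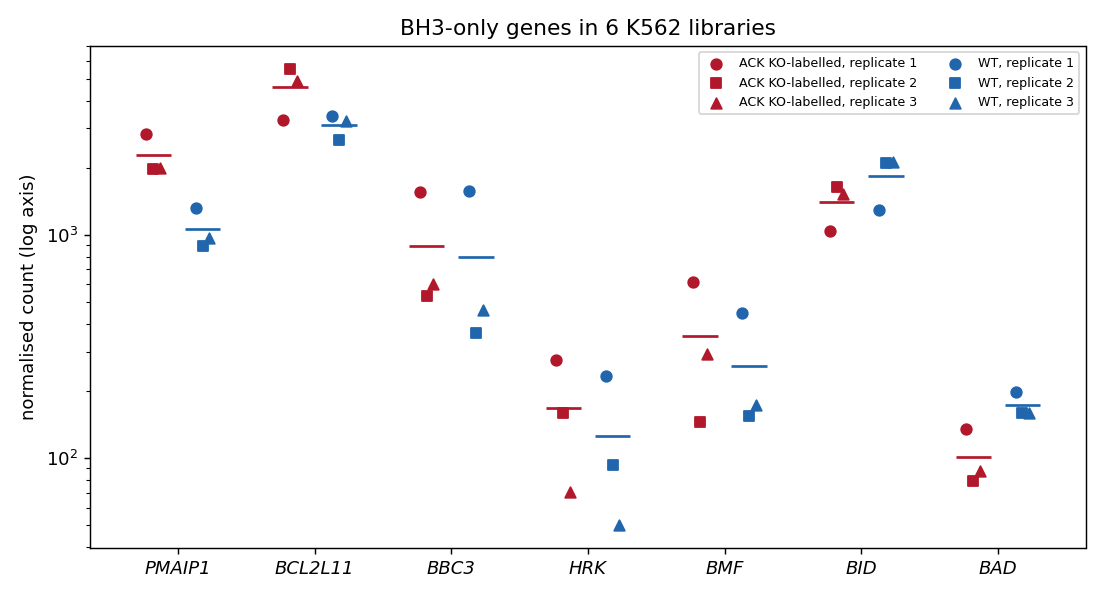
Normalised counts (log axis) of the 7 measured BH3-only genes in each of 6 libraries, ACK KO-labelled in red at the left of each gene and WT in blue at its right, with marker shape giving the replicate number and bars the group means. PMAIP1 is higher in every KO-labelled library and BAD lower, while replicate 1 of both groups is high for BBC3, HRK and BMF and low for BID.

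PMAIP1 encodes NOXA, a small BH3-only protein that binds MCL1 and helps to send it for degradation. The gene occupies chr18:59899948-59904306, plus strand (GRCh38, GENCODE 29, as for the genes that follow). It had 2829, 1985 and 1997 normalised counts in KO-labelled replicates 1 to 3, against 1317, 896 and 971 in WT. Every KO-labelled library exceeded every WT library by a wide gap. The means were 2270 ± 484 in KO-labelled cells and 1062 ± 225 in WT (SD, n = 3 each), 2.14-fold higher on the log2(value + 1) scale, with a log2 difference of 1.10 (SE 0.22, 95% interval 0.58 to 1.61, adjusted p 0.0229, limma). The differences within replicate numbers 1, 2 and 3 were 1.10, 1.15 and 1.04, so the rise was nearly the same in each pair. With the block the interval narrowed to 0.91 to 1.28 (adjusted p 1.05e-04, limma). Without a block the call held without WT replicate 1 (adjusted p 0.0119) and was lost when any 1 of the other 5 libraries was left out, at adjusted p-values from 0.054 (without KO-labelled replicate 1) to 0.105 (without WT replicate 3), while the log2 difference stayed between 0.93 and 1.26 (limma).

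The neighbours of PMAIP1 on chromosome 18 were also higher in KO-labelled libraries. Of 26 tested genes that start within 5 Mb of it, 84.6% had a positive log2 difference, with a median of 0.59 and quartiles of 0.34 and 1.18. The medians in replicate numbers 1, 2 and 3 were 0.56, 0.57 and 0.61. PMAIP1 exceeded the median by 0.51, with 8 neighbours above it and 18 below. Within 2 Mb only 6 genes were tested, with a median of 1.07, a difference of 0.02 from that of PMAIP1. The nearest, LMAN1, which encodes a cargo receptor of the secretory pathway, had means of 20800 ± 376 in KO-labelled and 16700 ± 817 in WT libraries (SD, n = 3 each) and a log2 difference of 0.32. SEC11C, a signal peptidase subunit gene, had a log2 difference of 0.89, MALT1, a paracaspase gene of lymphocyte receptor signalling, 1.12, and NEDD4L, a ubiquitin ligase gene, 1.20. BCL2 itself, the founding anti-apoptotic gene, starts 3.22 Mb beyond PMAIP1 and did not pass. It averaged 804 ± 366 normalised counts in KO-labelled and 1307 ± 608 in WT libraries (SD, n = 3 each), and its log2 difference was -0.70 (adjusted p 0.373, limma), with -2.0, -0.43 and 0.33 in replicate numbers 1, 2 and 3. How far the rise of PMAIP1 belongs to the gene and how far to its chromosomal segment was not tested.

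**Figure D2:**
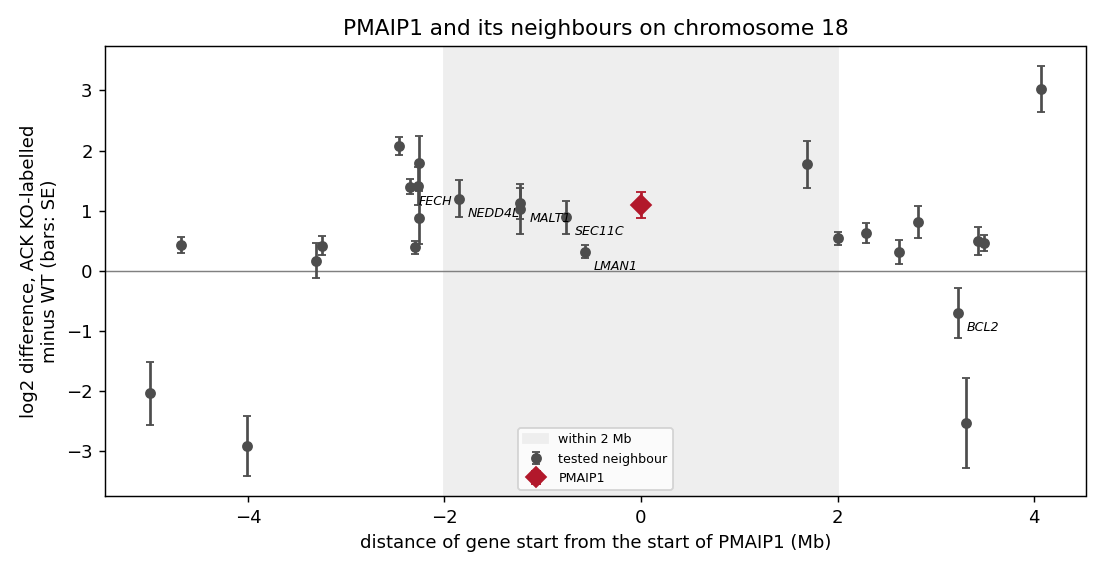
Log2 difference between ACK KO-labelled and WT libraries (y axis, bars are standard errors) of PMAIP1 (red diamond) and of the 26 tested genes that start within 5 Mb of it, by distance in Mb from its start (x axis), with the 2 Mb window shaded. PMAIP1, at 1.10, sits among its nearest neighbours, whose median is 1.07, and BCL2 lies below 0.

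The tested genes whose profile over the 6 libraries came closest to that of PMAIP1 were PCED1A, PLCG1 and GRB10. Likeness was the Euclidean distance between log2 profiles centred on their own means, which was 0.16, 0.167 and 0.181 for these genes beside a median of 1.74 over all genes. PCED1A averaged 1200 in KO-labelled and 566 in WT libraries. PLCG1, which encodes a phospholipase C, averaged 4430 in KO-labelled and 2050 in WT libraries, and GRB10, an adaptor gene, 11800 in KO-labelled and 6030 in WT libraries. Over 6 points many genes can lie close by, and PCED1A and PLCG1 lie on chromosome 20 and GRB10 on chromosome 7.

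BCL2L11 encodes BIM, the BH3-only protein most tied to the response of this leukaemia to kinase inhibitors. It occupies chr2:111119378-111168447, plus strand. Its normalised counts were 3282, 5556 and 4912 in KO-labelled replicates 1 to 3 and 3396, 2652 and 3253 in WT. KO-labelled replicates 2 and 3 stood above every WT library, and KO-labelled replicate 1 lay below WT replicate 1. The means were 4584 ± 1172 and 3100.3 ± 395 in KO-labelled and WT libraries (SD, n = 3 each), so the log2 difference was 0.54 (SE 0.22, 95% interval 0.01 to 1.06). That interval is not adjusted for the number of genes, and the adjusted p was 0.199, with 0.0541 in the blocked fit (limma). The differences in replicate numbers 1, 2 and 3 were -0.05, 1.07 and 0.59. It passed without KO-labelled replicate 1 (log2 difference 0.76, adjusted p 0.0489) and without both replicate 1 libraries, a choice made after seeing the data (0.83, adjusted p 0.00302, limma). The long non-coding gene MIR4435-2HG spans BCL2L11 on the opposite strand, with means of 4630 in KO-labelled and 4220 in WT libraries. The library kit was stranded, but how strand was used in counting is not stated, so the split of reads between these genes is uncertain.

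BAD, the BH3-only protein that survival kinases such as AKT, PIM and RSK switch off by phosphorylation, had the lowest KO-to-WT ratio of the 7. The gene occupies chr11:64269830-64284704, minus strand. It had 135, 79.2 and 87.3 normalised counts in KO-labelled libraries, against 198, 159 and 159.9 in WT. The groups did not overlap, with KO-labelled replicate 1 closest to WT. Means were 101 ± 30.4 and 172 ± 22.0 in KO-labelled and WT libraries (SD, n = 3 each), and the log2 difference was -0.80 (SE 0.28, unadjusted 95% interval -1.48 to -0.13). The adjusted p was 0.14 without the block and 0.0148 with it (limma). The differences within numbers were -0.54, -1.0 and -0.87. GPR137, on the opposite strand, overlaps nearly all of BAD and averaged 652 in KO-labelled and 590 in WT libraries, so the low value of BAD carries the same uncertainty as that of BCL2L11. Among 244 tested genes within 5 Mb of BAD the median log2 difference was -0.05, and 13 of them were lower than BAD.

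BID, which caspase-8 cleaves to link death receptors to mitochondria, occupies chr22:17734138-17774770, minus strand. Its normalised counts were 1042, 1639 and 1533 in KO-labelled libraries and 1295, 2094 and 2118 in WT. The groups overlapped, because replicate 1 was low in both, yet within each number the KO-labelled library was the lower. KO-labelled libraries averaged 1405 ± 319 and WT 1836 ± 468 (SD, n = 3 each), and the log2 difference was -0.38 (SE 0.26, adjusted p 0.458, limma). The blocked fit gave an SE of 0.08, an interval of -0.57 to -0.19 and an adjusted p of 0.00914 (limma). Genes within 5 Mb had a median of 0.12, and 99 of 109 were higher than BID.

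BBC3 encodes PUMA, which binds all anti-apoptotic members of the family, and occupies chr19:47220822-47232766, minus strand. It had 1553, 535 and 601 normalised counts in KO-labelled replicates 1 to 3 and 1578, 363 and 459 in WT. Replicate 1 of either group was far above the other libraries, and at that number the genotypes were almost equal. The log2 difference was 0.31 (SE 0.64, adjusted p 0.831), and the block reduced the SE to 0.13 (adjusted p 0.109, limma). The sign turned without KO-labelled replicate 1 (-0.18) and without WT replicate 2 (-0.10).

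BMF, released from the actin-bound myosin motor when cells lose anchorage, occupies chr15:40087890-40108892, minus strand. It had 617, 145 and 292 normalised counts in KO-labelled libraries and 445, 155 and 172 in WT. The groups overlapped, with replicate 1 high in both. HRK (chr12:116856144-116881441, minus strand) had 275, 159.9 and 70.6 in KO-labelled libraries and 234, 93.3 and 50.2 in WT. The groups overlapped for both genes. The log2 difference of BMF was 0.38 (SE 0.61, adjusted p 0.779, and 0.16 with the block), and that of HRK was 0.49 (SE 0.69, adjusted p 0.736, and 0.0873 with the block, limma). Without KO-labelled replicate 1 the difference of BMF was -0.15, and without WT replicate 3 that of HRK was -0.02. For HRK the KO-labelled library was above its WT partner in each number, by 0.23, 0.77 and 0.48, and for BMF in numbers 1 and 3 (0.47 and 0.76) but not 2 (-0.09).

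**Figure D3:**
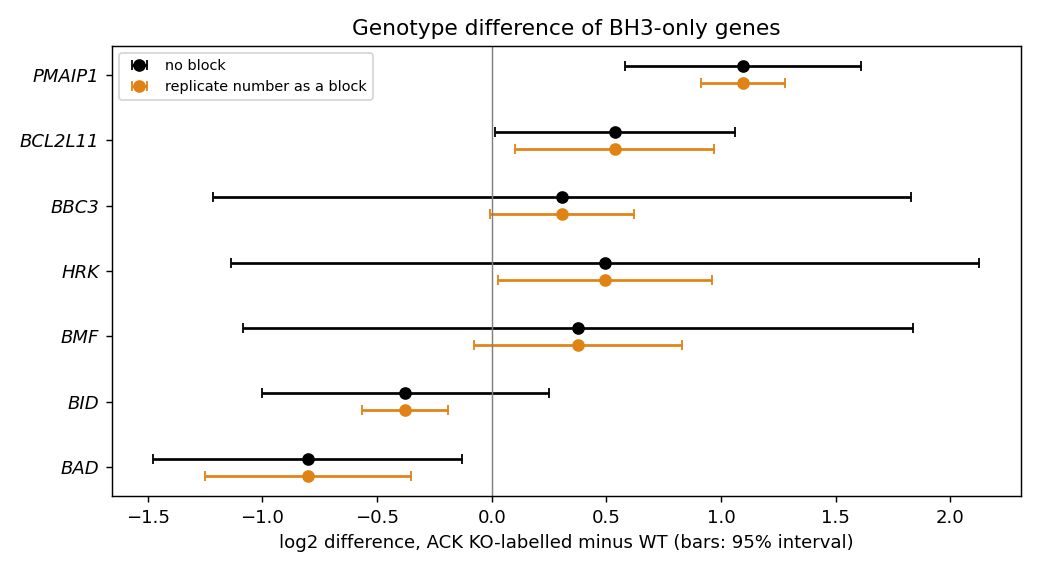
Log2 difference between ACK KO-labelled and WT libraries of each BH3-only gene (points) with its 95% interval, unadjusted for the number of genes, from the fit without a block (black) and with the replicate number as a block (orange). The intervals of PMAIP1 and BCL2L11 stay above 0 and that of BAD below 0 in both fits. Of these genes only PMAIP1 passed after adjustment without the block. The interval of BBC3, from -1.22 to 1.83 without the block, narrows with the block to -0.01 to 0.62.

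Replicate number was itself a source of change for most of the group. It was tested as a term beside genotype, a test added after the values had been seen, and 5 of 7 BH3-only genes passed, beside 40.4% of all tested genes (limma, Benjamini-Hochberg). Taken over both genotypes, BBC3 was higher in replicate 1 than in the mean of replicates 2 and 3 by 1.70 on the log2 scale (adjusted p of the term 6.57e-04). The same log2 difference was 1.56 for HRK (0.00209), 1.51 for BMF (0.00297) and 0.50 for PMAIP1 (0.00799). BID was the reverse, with -0.65 (0.00306), and its low value in replicate 1 held in both groups. BAD (0.50, adjusted p 0.176) and BCL2L11 (-0.23, 0.599) did not pass. What a replicate number stands for is not in the labels.

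**Figure D4:**
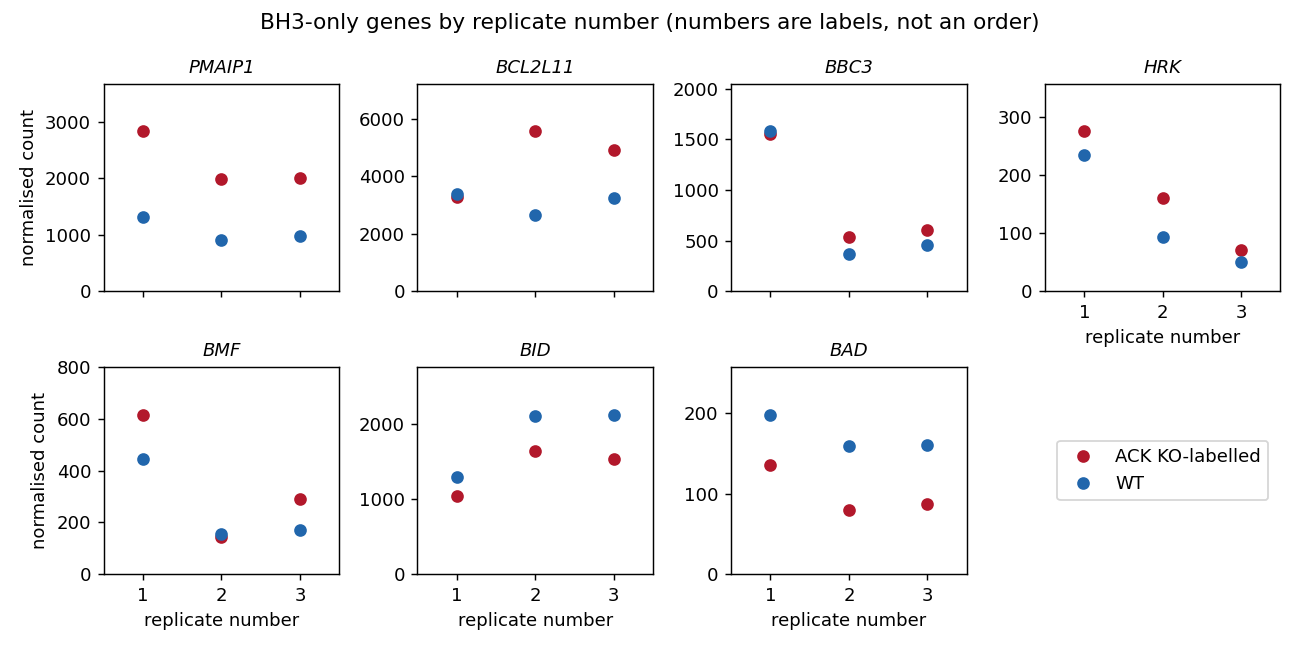
Normalised counts (y axis, from 0) of each BH3-only gene against replicate number (x axis, labels without an order), ACK KO-labelled in red and WT in blue. The 2 genotypes follow the same pattern over the numbers for BBC3, HRK and BID, whereas the KO-labelled points of PMAIP1 lie above and those of BAD below the WT points at every number.

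The order of levels within the group was set per kilobase of merged exons, since longer genes collect more reads. PMAIP1 averaged 1020 ± 217 normalised counts per kb in KO-labelled and 475 ± 101 in WT libraries, and BCL2L11 688 ± 176 and 466 ± 59.3 (SD, n = 3 each). BID followed with 316 ± 71.7 and 413 ± 105, and BBC3 with 282 ± 179 and 252 ± 212 in KO-labelled and WT libraries. BAD (58.9 ± 17.8 and 101 ± 12.9), BMF (64.5 ± 44.3 and 47.2 ± 29.8) and HRK (24.6 ± 15 and 18.4 ± 14) formed the low end. HRK was last in all 6 libraries. PMAIP1 ranked first, BCL2L11 second in all 3 KO-labelled libraries, whereas in WT each of PMAIP1, BID and BCL2L11 led 1 library, and these neighbours in the WT order did not differ beyond their spread. Levels of PMAIP1 exceeded 89.7% of genes with a length in KO-labelled and 76.5% in WT libraries. The 7 genes summed to 2714, 2356 and 2280 normalised counts per kb in KO-labelled replicates and to 2119, 1520.0 and 1677 in WT. PMAIP1 and BCL2L11 supplied 64.8% to 73.1% of that sum in KO-labelled libraries and 51.9% to 55.1% in WT.

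Promoter sequence was examined for the genes that led the comparison. RefSeq promoter windows (GRCh38.p14) were matched by symbol for 7 of the 8 genes, 13 windows in all, and BIK had none. The 250 bases before the start are shown for PMAIP1 (chr18:59899746-59899995, plus strand), BCL2L11 (chr2:111120664-111120913, plus strand) and BAD (chr11:64284705-64284954, minus strand), since these 3 genes had the largest differences relative to their error. Capitals mark the motif matches.
PMAIP1: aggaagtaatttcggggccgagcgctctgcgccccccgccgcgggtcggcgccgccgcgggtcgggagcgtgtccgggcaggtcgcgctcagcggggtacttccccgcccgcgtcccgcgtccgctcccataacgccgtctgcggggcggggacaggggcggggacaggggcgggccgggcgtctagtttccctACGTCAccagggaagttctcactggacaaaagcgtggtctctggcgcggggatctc
BCL2L11: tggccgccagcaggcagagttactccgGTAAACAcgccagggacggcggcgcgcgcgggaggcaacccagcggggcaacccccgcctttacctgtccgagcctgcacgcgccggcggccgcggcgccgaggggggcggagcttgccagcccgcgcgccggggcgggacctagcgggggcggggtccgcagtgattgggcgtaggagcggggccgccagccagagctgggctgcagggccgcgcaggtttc
BAD: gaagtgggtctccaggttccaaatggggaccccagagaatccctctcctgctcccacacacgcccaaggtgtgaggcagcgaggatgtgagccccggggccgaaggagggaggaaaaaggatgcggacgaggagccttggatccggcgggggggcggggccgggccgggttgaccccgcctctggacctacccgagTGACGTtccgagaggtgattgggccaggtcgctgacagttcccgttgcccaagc
The capitals are a half-site of the cyclic AMP response element, TGACGT, in PMAIP1 (read on the other strand) and BAD, and the FOXO core GTAAACA in BCL2L11. Both strands were searched, and the motifs did not overlap one another here. TGACGT was in 3 of the 13 windows of the group and in 7.1% of all 35116 windows, and GTAAACA in 1 of 13 and 3.0%. The E-box CACGTG was in 3 of 13 windows, of BBC3 and BID, and in 6.3% of all. Some windows of a gene overlap, and the BAD matches are 1 site counted in each of its windows, and the BID matches are likewise 1 site. The STAT palindrome TTCNNNGAA was in 0 of 13 and in 6.6% of all, and the E2F-like TTTNNCGC in 0 of 13 and in 5.9%. A match is only a string of letters in these windows, and its lack says nothing of the factor.

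The pathway around the BH3-only genes was followed with 10 lists, in which 12 of 88 tested genes passed (13.6%), or 44 with the block, beside 10.3% and 39.7% of all genes (limma, Benjamini-Hochberg). Without WT replicate 1 the count of 12 was 13. It was 4, 3 and 2 on leaving out KO-labelled replicates 1, 2 and 3, and 2 and 1 on leaving out WT replicates 2 and 3. BOK, which encodes a BAX-like pore former, had the largest rise. It averaged 369 ± 26.4 in KO-labelled and 71.3 ± 15.5 in WT libraries (SD, n = 3 each), a 5.18-fold rise (adjusted p 0.00176, limma), and it passed in each fit without 1 library. Of the 3 pore formers BAX and BAK1 did not pass, with log2 differences of 0.33 and -0.35, though BAK1 fell in the blocked fit (adjusted p 0.0174, limma). Among the anti-apoptotic genes 0 of 4 passed, 0 at an unadjusted p of 0.05 and 0 with the block. With log2 differences of 0.10 and -0.09, MCL1, the partner of NOXA, averaged 15983 ± 3502 in KO-labelled and 14948 ± 3669 in WT libraries, and BCL2L1 7633 ± 650 in KO-labelled and 8115 ± 576 in WT libraries (SD, n = 3 each). BCL2A1 and BCL2L10 were not analysed here.

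Of the atypical BH3 proteins, BNIP3, a mitophagy receptor gene, fell 2.02-fold to 713 ± 85.6 in KO-labelled libraries, against 1447 ± 237 in WT (SD, n = 3 each, adjusted p 0.0152, limma). The other 4 of 5 did not pass (20% called, beside 10.3% of all tested genes). With the block 1 rose and 2 fell, beside 39.7% of all tested genes. These were MOAP1 (log2 difference 0.32, adjusted p 0.392, and 0.0342 with the block), BNIP3, and BNIP1 (-0.63, 0.051, and 0.00631 with the block, limma). Upstream of BID, 2 of 9 genes of the death receptor arm fell and none rose (22.2% called, beside 10.3% of all tested genes). TNFRSF10A, a TRAIL receptor gene, fell 1.57-fold (adjusted p 0.0284) and CASP10, the relative of caspase-8, 1.44-fold (0.03). CASP8 itself had a log2 difference of 0.09 and CFLAR, its inhibitor, -0.42, and neither passed without the block (limma). With the block the arm had 1 rise and 4 falls, CFLAR among them (adjusted p 0.0125, limma), beside 39.7% of all tested genes. The TRAIL and caspase-10 calls were each lost in 5 of 6 fits without 1 library, at up to 0.121 without WT replicate 3 for TNFRSF10A and 0.127 without KO-labelled replicate 3 for CASP10. BNIP3 was lost in 4, at up to 0.0691 without WT replicate 3 (adjusted p, limma).

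Among the transcription factors known to act on BH3-only genes, E2F1, a cell cycle factor, rose 1.55-fold to 1626 ± 126 in KO-labelled libraries, against 1051.0 ± 113 in WT (SD, n = 3 each; adjusted p 0.04, limma). It lies on chromosome 20, where the 94 tested genes within 5 Mb had a median log2 difference of 0.53. CEBPB, a stress and differentiation factor, had a log2 difference of 1.01 (adjusted p 0.209, and 1.55e-04 with the block, limma). Of the FOXO factors, which act on BCL2L11, FOXO1 had a log2 difference of -0.60 (adjusted p 0.262, and 0.0285 with the block), FOXO3 0.46 (0.475, and 0.0023 with the block) and FOXO4 0.31 (0.454, and 0.117 with the block, limma). FOXO1 was lower in the KO-labelled library of every replicate number and FOXO3 higher, so these factors did not move one way. The call of E2F1 was lost in 5 of 6 fits without 1 library, with adjusted p-values (limma) of up to 0.165 when WT replicate 3 was left out.

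Of 18 kinases and phosphatases that act on BAD or BIM 1 rose, 3 fell and 14 did not pass (22.2% called, beside 10.3% of all tested genes). With the block there were 3 rises and 6 falls, beside 39.7% of all tested genes. PIM2, a STAT5 target whose product phosphorylates BAD, fell 1.87-fold (adjusted p 0.02), MAPK9, which encodes the kinase JNK2, 1.79-fold (0.00916) and PPP2CA, the catalytic subunit gene of the phosphatase PP2A, 1.74-fold (0.0497, limma). MAPK9 and PPP2CA lie on chromosome 5, where tested genes within 5 Mb had medians of -0.69 around MAPK9 and -0.62 around PPP2CA. PRKACA, the catalytic subunit gene of protein kinase A, rose 1.45-fold (adjusted p 0.0497, limma). Among fits lacking 1 library, adjusted p-values (limma) went up to 0.0839 for PIM2 and 0.188 for PPP2CA (without WT replicate 3), and 0.0551 for MAPK9 and 0.194 for PRKACA (without KO-labelled replicate 3).

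None of 8 dynein light chain and 14-3-3 genes, none of 11 apoptosome, caspase and mitochondrial genes and none of 5 inhibitor of apoptosis genes passed (limma), with 0, 2 and 1 at an unadjusted p of 0.05. With the block the calls were 1 rise and 0 falls, 1 rise and 2 falls, and 1 rise and 2 falls, beside 39.7% of all tested genes. The smallest p in the last 2 lists belonged to VDAC2, a channel that holds BAK at the mitochondrion (log2 difference -0.57, adjusted p 0.0957, and 3.46e-04 with the block), and BIRC3, the gene of an inhibitor of apoptosis protein (-2.12, adjusted p 0.0908, and 0.0017 with the block, limma). BIRC3 was a low gene, at 17.6 ± 11.5 in KO-labelled and 79.5 ± 54.2 in WT libraries (SD, n = 3 each). Of 12 genes of the stress and damage response outside the BH3-only group 2 rose and 10 did not pass (16.7% called, beside 10.3% of all tested genes). This list had 6 rises and 2 falls with the block, beside 39.7% of all tested genes. CDKN1A, the p21 gene, rose 4.23-fold to 875 ± 494 in KO-labelled libraries, against 189.9 ± 64.0 in WT (SD, n = 3 each; adjusted p 0.0358), and GADD45A, a stress response gene, 1.59-fold (0.0268, limma). Both calls depended on single libraries, with adjusted p-values of up to 0.136 for CDKN1A (without KO-labelled replicate 3) and 0.125 for GADD45A (without WT replicate 3). The 37 tested genes within 5 Mb of GADD45A had a median log2 difference of 0.57.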

How the data were processed

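Polyadenylated RNA of 6 K562 libraries, 3 labelled ACK KO and 3 WT, was sequenced with a stranded kit and adapters carrying unique molecular identifiers, per the labels' protocols, which do not say whether these were used in counting. The submitters' processing notes name STAR 2.7.2b, Salmon 1.1.0, DESeq2 1.26.0 and GRCh38, without roles; the annotation release, aligner settings and strand in counting were not stated there or in the labels. In unit the authors' deposited gene values are a signal, normalised counts that are neither whole numbers nor logarithms, per the file headers and the values. Depth is unknown. Groups follow the labels.

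Symbols were matched for 19392 identifiers and GENCODE 29 positions for 19112. The 16658 genes reaching 10 normalised counts in 3 or more of the 6 libraries were fitted on the log2(value + 1) scale by limma 3.58.1 (R 4.3.3), with an intensity trend and no block. Adjustment was Benjamini-Hochberg over all of them, with a threshold of 0.05. The labels call the replicates biological but name no separate clones, so a p-value here covers just the spread among these libraries. Fold changes are on the log2(value + 1) scale. Deviations from group means correlated at 0.699, 0.521 and 0.342 between same-numbered KO-labelled and WT libraries. Between numbers 2 and 3 they correlated at 0.281 and 0.257, and between number 1 and the others at -0.594 to -0.418. Number 1 thus stood apart, while the matching of numbers 2 and 3 between genotypes is less sure. The numbers were taken as pairs in a second fit. Its value is given for named genes whose stated call it changes. Further genes of the lists changed call with the block and are not named. The test was checked on simulated data. There the fit without a block missed most of the changes put in, so a gene that did not pass may still differ.

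The named genes are the group, TNK2, members of each list past the threshold, up to 4 others by smallest p, and the 3 nearest profiles. Genes named outside this rule (the neighbours of PMAIP1, the overlapping genes, CASP8, FOXO3 and the partners of named proteins) were chosen after values were seen or by position. The group and lists were chosen with earlier results of these data known. Alternatives were the pseudocount, filter, scaling, trend, block, window and libraries left out. Some genes of the lists are not reported here.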

Additional observations from a re-analysis of the deposited data

How the results depend on the processing

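The counts of genes, of BH3-only genes and of pathway genes past the threshold were 1721, 1 and 12. They stayed within 1.5 times of this with pseudocounts of 5 and 0.5, no filter and equal library sums. Quantile normalisation added BAD, giving 2 BH3-only genes (adjusted p of BAD 0.0439, limma). Leaving out the trend gave 6 pathway genes. The replicate block gave 6612, 3 and 44, and the check of the pairing and its limits are described above. Leaving out both replicate 1 libraries, chosen after seeing the data, gave 4731, 4 and 32. Leaving out 1 library gave 726 to 2183 genes, 0 to 1 BH3-only genes (BCL2L11 in place of PMAIP1 without KO-labelled replicate 1) and 1 to 13 pathway genes. Over the fits without 1 library BBC3 ranged from -0.18 to 0.96, BMF from -0.15 to 0.89 and HRK from -0.02 to 1.08. Reversed signs were those of BBC3 (-0.18 without KO-labelled replicate 1, -0.10 without WT replicate 2), BMF (-0.15 without KO-labelled replicate 1) and HRK (-0.02 without WT replicate 3). With a window of 2 Mb in place of 5 the median near PMAIP1 was 1.07 (6 genes), near BAD 0.02 and near BBC3 -0.06. Equal library sums moved the median of all genes to 0.08, and PMAIP1 to 1.20. Causes were not tested beyond each setting's own construction, and unknown depth limits what can be said of low genes such as HRK and BAD.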
